A study of Mus musculus with 9 samples.

Results

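Interferon-stimulated genes are the genes that a cell switches on when interferon, a cytokine released during infection, binds its receptor. The 45 members described here were a list of symbols matched to the 34866 Ensembl identifiers of the deposited expression tables, and 45 of 45 were found. Expression was measured by mRNA sequencing of primary mouse macrophages, which engulf microbes and dying cells, grown in culture; the 9 libraries fell into 3 groups of 3. Cells of the standard oxygen group were cultured for 7 days without a change of oxygen, cells of the acute hypoxia group were moved from it to 1% oxygen for 3 hours, and cells of the chronic hypoxia group were held at 1% oxygen for all 7 days. All groups grew in alpha-MEM with serum and with medium conditioned by L929 cells, a mouse fibroblast line that secretes the macrophage growth factor CSF-1. The labels give no strain, genotype, sex, age or tissue of origin, and do not say whether the 3 libraries of a group came from separate animals or cultures, so p-values here measure only the spread between these libraries, which may be technical. Every group held 1 library with each of 3 codes, a run of digits shared in the sample descriptions, called X, Y and Z here; what the digits stand for is not stated. Values in series below are given in the order X, Y, Z, and they are TPM, a gene's share of a library's transcripts scaled to a fixed total after correction for length. TPM keeps no count of reads, so the sequencing depth is unknown and no counting error can be attached to a value.

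As background, type I interferons bind the receptor IFNAR1 and IFNAR2, whose kinases JAK1 and TYK2 phosphorylate STAT proteins such as STAT2; with IRF9 these form a complex that binds the interferon-stimulated response element in target promoters. Interferon gamma acts through another receptor, and its target promoters often hold a GAS element. Macrophages also keep a low, constant level of many of these genes without infection, and several members (Stat2, Irf9, Irf7) are themselves parts of the pathway.

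The response element can be seen in the promoters of the members. RefSeq promoter windows on GRCm38.p6, covering 250 bases before to 50 bases after the gene start, were found for 34 of the 45 members. An element-like match, GAAA and GAAA with any 2 bases between them on either strand, was in the windows of 20 of the 34 (58.8%). Of all 27025 genes with a RefSeq window, whether or not they were in the expression tables, 3.99% had a match. The GAS-like TTCNNNGAA, which can overlap it, was in 10 (29.4%; all genes 9.55%). The core of the hypoxia response element, ACGTG or GCGTG on either strand, was in 12 (35.3%; all genes 46.7%, and 68.7% of genes with a mean of at least 1 TPM). A match describes the letters of the window and is not evidence of binding. Samd9l and Irf7 had no such element-like match in their windows, and Slfn5 had 1.

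The 250 bases before the gene start, on the gene's own strand, are shown for the most abundant matching member of each role group described below, to show the element whose target genes are measured; capitals mark the element-like match or its reverse complement, merged where matches overlap. Oas1a (chr5:120907526-120907775, minus strand), Bst2 (chr8:71537473-71537722, minus strand), Isg15 (chr4:156200819-156201068, minus strand) and Irgm1 (chr11:48871421-48871670, minus strand) held 2, 2, 3 and 2 overlapping matches, and Stat2 (chr10:128270248-128270497, plus strand) held 1. Among the nucleic acid sensors the only match of the most abundant matching member, Ddx58, lay after the gene start, and no antigen processing member matched, so none is shown for these groups.
Oas1a: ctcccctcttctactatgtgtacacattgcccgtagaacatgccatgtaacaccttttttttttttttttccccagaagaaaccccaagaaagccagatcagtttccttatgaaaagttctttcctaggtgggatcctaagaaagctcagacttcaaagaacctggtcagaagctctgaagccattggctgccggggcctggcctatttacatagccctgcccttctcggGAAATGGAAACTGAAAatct
Bst2: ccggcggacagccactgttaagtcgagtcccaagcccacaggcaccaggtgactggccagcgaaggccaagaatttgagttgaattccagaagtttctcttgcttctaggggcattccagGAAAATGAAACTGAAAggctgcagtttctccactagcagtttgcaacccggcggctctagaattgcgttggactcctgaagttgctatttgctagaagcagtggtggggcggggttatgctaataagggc
Isg15: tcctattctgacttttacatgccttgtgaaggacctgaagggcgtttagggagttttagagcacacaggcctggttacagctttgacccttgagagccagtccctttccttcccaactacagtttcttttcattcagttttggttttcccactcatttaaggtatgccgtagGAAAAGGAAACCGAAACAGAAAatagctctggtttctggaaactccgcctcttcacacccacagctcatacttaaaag
Stat2: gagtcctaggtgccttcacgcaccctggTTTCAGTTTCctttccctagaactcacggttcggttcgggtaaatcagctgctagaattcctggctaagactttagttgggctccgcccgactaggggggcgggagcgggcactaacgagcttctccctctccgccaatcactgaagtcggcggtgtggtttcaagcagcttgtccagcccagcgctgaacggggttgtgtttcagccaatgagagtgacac
Irgm1: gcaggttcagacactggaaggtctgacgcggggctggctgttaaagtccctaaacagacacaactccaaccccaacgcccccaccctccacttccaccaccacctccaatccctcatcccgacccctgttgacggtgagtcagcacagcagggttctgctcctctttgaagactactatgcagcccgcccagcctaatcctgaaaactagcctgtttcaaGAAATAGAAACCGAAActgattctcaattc

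The libraries of code Z stood apart before any comparison of oxygen. Mertk, a macrophage receptor for dying cells, was at 2.21 to 3.37 TPM in the 3 libraries of code Z and at 21.8 to 33.3 TPM in the other 6. Across all genes, deviations from the group mean correlated in every pair of libraries of the same code (r = 0.378 to 0.633 across genes, which are not independent replicates), so the code was used as a block in the tests, and results are also given without code Z. The 9 macrophage markers were present in all libraries, with a summed level of 62692 to 70956 TPM in standard oxygen, 56881 to 75026 TPM after acute hypoxia and 62023 to 68222 TPM in chronic hypoxia. Lyz2 alone reached 70403 TPM, so the sums say little about the other markers. Plasmacytoid dendritic cells, a major source of interferon, were represented by 5 markers that summed to 0.192 to 3.05 TPM in standard oxygen, 0.134 to 3.52 TPM after acute hypoxia and 0.555 to 1.11 TPM in chronic hypoxia; Klk1 and Ly6d were listed at 0 in all libraries, and Cox6a2, listed at 0 in code Z, gave most of the sum in X and Y. The 8 neutrophil markers summed to 10.95 to 39.6 TPM in standard oxygen, 13.3 to 37.8 TPM after acute hypoxia and 52.3 to 84.4 TPM in chronic hypoxia, nearly all from Mmp8, with Mpo and Ly6g under 1 TPM in all libraries; the part of these genes in the results was not tested. Of 8 classic hypoxia-induced genes, 5 were called higher in acute hypoxia and 7 in chronic hypoxia, each against standard oxygen (0.71% and 18.4% of all genes were called, in either direction). Without the block 0 of the 8 were called in acute hypoxia, with 6 at an unadjusted p under 0.05, and 7 in chronic hypoxia (all genes 0.0273% and 2.69%). In that acute fit 785 of 10987 genes had an unadjusted p under 0.05.

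Most members were expressed at a low but measurable level, and 1 library exceeded the others for most of them. A mean of at least 1 TPM over the 9 libraries was reached by 38 of the 45 members, 13 were at 10 TPM or more in every library, and 5 never reached 1 TPM. The median over the 45 members was 5.06, 6.69 and 22.6 TPM in the standard libraries of codes X, Y and Z, 5.73, 6.30 and 10.8 TPM in the acute libraries, and 5.57, 5.02 and 3.98 TPM in the chronic libraries. The standard library of code Z was thus the highest of the 9 and the chronic library of code Z the lowest, while the libraries of codes X and Y lay close together in every group.

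Of the 38 members, 4 (Gbp3, Ifit1, Ifit2 and Ifit3) were under 1 TPM on average in codes X and Y and reached the minimum through code Z. Counts that set code Z against X and Y are therefore given over the other 34, beside all 10895 genes with a mean of at least 1 TPM in X and Y. The standard library of code Z held the highest of the 9 values for 27 of these 34 members (79.4%; all genes 11.2%). It was above both other standard libraries for 32 members (all genes 57.1%), at least 2 times the higher of them for 23 (all genes 4.64%) and at least 5 times for 8 (all genes 0.799%). In acute hypoxia the code Z library was at least 2 times the higher of the other libraries for 11 members (all genes 4.2%), and in chronic hypoxia for 0 (all genes 3.45%). The order standard, acute, chronic from high to low within code Z held for 30 of the 34 (all genes 11.6%). The chronic library of code Z was the lowest of the 9 for 18 members (52.9%; all genes 7.62%). With 1 library for each code and oxygen group, whether oxygen acts differently in code Z could not be tested, and in bulk RNA fewer responding cells and less RNA per cell cannot be told apart.

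**Figure D1:**
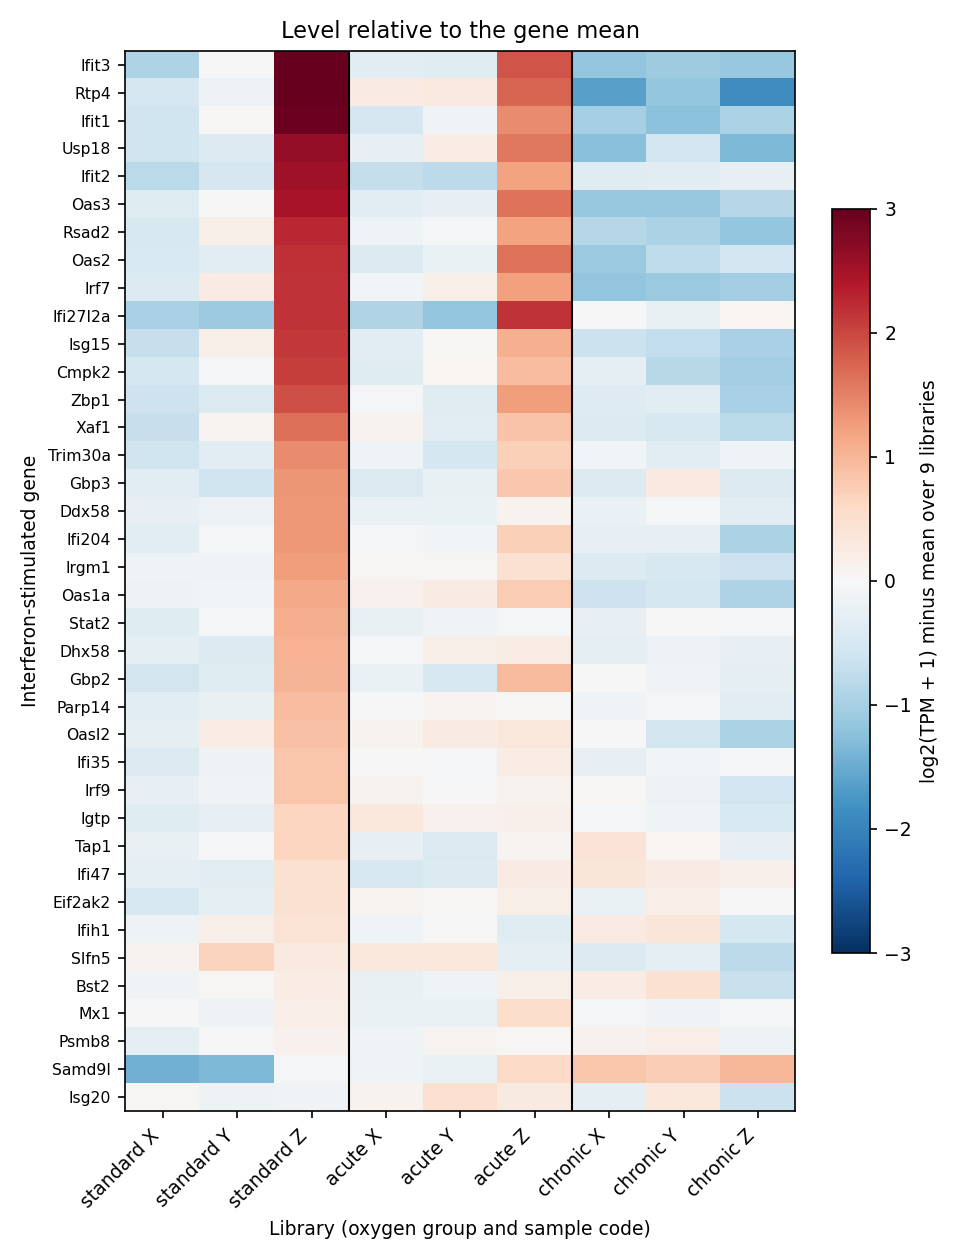
Heat map of the 38 members with a mean of at least 1 TPM: each row is a member, each column a library (oxygen group and code), and the colour is log2(TPM + 1) minus the member's mean over the 9 libraries, with the scale ending at 3 and -3. The standard library of code Z is the reddest column for most rows and the chronic library of code Z is pale or blue for most, while Samd9l runs from blue in the standard libraries of X and Y to red in chronic hypoxia.

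The IFIT, OAS and Mx proteins are the classic antiviral effectors of the response: IFIT proteins bind viral RNA, oligoadenylate synthetases sense RNA duplexes and activate RNase L, and Mx proteins are GTPases that block viral replication. Of the 11 members of this group, 8 had a mean of at least 1 TPM. Ifit3 was at 0.432, 1.66 and 22.6 TPM in the standard libraries, at 1.16, 1.11 and 8.91 TPM in the acute ones and at 0.180, 0.282 and 0.237 TPM in the chronic ones. It was thus over 10 TPM in 1 library only, and every chronic library was below every standard library and every acute library. Ifit3 shares 41.1% of its 75-base transcript stretches with other genes, so its reads may be split with its near copy Ifit3b.

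Oas1a was the most abundant member of this group. The Oas1a level was 29.1, 30.3 and 72.3 TPM in standard oxygen, 35.6, 38.6 and 55.2 TPM after acute hypoxia and 20.6, 22.3 and 16.5 TPM in chronic hypoxia. The chronic libraries were below the others in every code, by a ratio to standard oxygen of 0.708 in X and 0.734 in Y, and the standard library of code Z was 4.38 times its chronic counterpart. Oas1a shares 47.6% of its 75-base stretches with Oas1g, and its level is uncertain to that extent. For Oas2, the standard libraries gave 1.47, 1.72 and 14.5 TPM, the acute libraries 1.56, 1.96 and 9.45 TPM and the chronic libraries 0.565, 0.989 and 1.27 TPM. In code Z the standard and acute libraries were several times those of X and Y, and in chronic hypoxia all 3 libraries were at 1.27 TPM or less. Levels of Mx1 were 12.3, 10.9 and 14.3 TPM in standard oxygen, 10.5, 10.6 and 18.2 TPM after acute hypoxia and 11.7, 11.4 and 12.0 TPM in chronic hypoxia. Mx1 was nearly level across the 9 libraries, with its highest value in the acute library of code Z.

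The levels of the other members of the group differed. Ifit1, Ifit2 and Oas3 were at 18.2, 15.8 and 42.4 TPM in the standard library of code Z and at 0.636 to 6.74 TPM in the standard libraries of X and Y. Oasl2 did not pass 3.24 TPM in any library, and Ifit3b reached 4.77 TPM in the standard library of code Z and 0.743 TPM or less in the other 8. Oasl1 and Mx2 stayed under 1 TPM in all libraries. Shares of at least 5% of 75-base stretches in common with other genes were also found for Ifit3b (35.7%), Gbp7 (11.4%), Igtp (8.37%), Trim30a (5.44%) and Ifit1 (5.19%), whose levels are uncertain in the same way.

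The other antiviral effectors include enzymes, membrane proteins and ubiquitin ligases that act on different steps of viral growth. Of the 14 members, 13 had a mean of at least 1 TPM. Bst2 was at 579, 639 and 731 TPM in the standard libraries, at 532, 566 and 706 TPM in the acute ones and at 724, 855 and 388 TPM in the chronic ones. Bst2, or tetherin, which holds budding virus particles at the cell surface, was the most abundant of the 45 members; its chronic library was above the standard one in X and Y and below it in Z. The Rtp4 level was 1.90, 2.67 and 32.7 TPM in standard oxygen, 3.87, 4.08 and 13.0 TPM after acute hypoxia and 0.342, 0.856 and 0.131 TPM in chronic hypoxia. Rtp4, a receptor transporter protein, was under 1 TPM in all 3 chronic libraries and above that in the 6 others. The chronic group thus did not overlap the other groups.

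Samd9l and Slfn5 had patterns of their own. For Samd9l, the standard libraries gave 11.9, 12.7 and 33.2 TPM, the acute libraries 31.3, 29.4 and 51.0 TPM and the chronic libraries 60.9, 57.8 and 69.3 TPM. Samd9l, which restricts viral protein synthesis, was higher in acute than in standard oxygen and higher again in chronic hypoxia within each code, and the chronic libraries were above all the others. Levels of Slfn5 were 20.3, 30.3 and 23.05 TPM in standard oxygen, 23.6, 23.4 and 15.4 TPM after acute hypoxia and 13.9, 15.3 and 10.4 TPM in chronic hypoxia. Slfn5, of the Schlafen family, was lowest in chronic hypoxia in every code, and its chronic libraries were below all acute and standard ones. Ifi27l2a, a small interferon-induced membrane protein picked out after its values were seen, showed another pattern. Ifi27l2a was at 10.6, 9.71 and 101 TPM in the standard libraries, at 11.3, 9.03 and 102 TPM in the acute ones and at 21.7, 18.6 and 22.7 TPM in the chronic ones. It was about as high in acute hypoxia as in standard oxygen in code Z, and the 3 chronic libraries lay close together, above standard oxygen in X and Y and below it in Z.

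Among the rest, Rsad2, or viperin, which makes an antiviral nucleotide, was at 11.4 TPM in the standard library of code Z and at 0.149 to 0.438 TPM in chronic hypoxia. Cmpk2, a nucleotide kinase whose gene lies beside Rsad2 on chromosome 12, was at 12.2 TPM in the standard library of code Z and at 0.517 to 1.59 TPM in chronic hypoxia. Trim30a, Xaf1, Ifi35 and Parp14 were at 25.2, 29.9, 31.4 and 29.4 TPM in the standard library of code Z and at 4.60 to 16.5 TPM in the chronic libraries. Eif2ak2, the kinase PKR that halts translation on sensing viral RNA, ranged from 11.3 to 22.5 TPM, and the exonuclease gene Isg20 from 1.15 to 3.62 TPM. Ifi44 stayed under 1 TPM in all libraries. Isg20 was the 1 member whose acute libraries lay above all standard libraries.

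Isg15 is a ubiquitin-like protein that is attached to other proteins, and Usp18 removes it and also dampens signalling from the interferon receptor. Isg15 was at 4.29, 8.65 and 35.8 TPM in the standard libraries, at 5.73, 7.70 and 16.9 TPM in the acute ones and at 4.41, 4.10 and 3.36 TPM in the chronic ones. The Usp18 level was 1.51, 1.85 and 22.9 TPM in standard oxygen, 2.23, 3.41 and 10.5 TPM after acute hypoxia and 0.587, 1.55 and 0.505 TPM in chronic hypoxia. Both genes were highest in the standard library of code Z, intermediate in its acute library and low in all chronic libraries. For both, every chronic library was below every acute library, whereas the chronic and standard libraries overlapped.

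The nucleic acid sensors of the list detect foreign or misplaced RNA and DNA: Ddx58 is RIG-I, Ifih1 is MDA5, Dhx58 is LGP2, Zbp1 binds left-handed nucleic acid helices and Ifi204 senses DNA. For Ifi204, the standard libraries gave 15.8, 19.4 and 51.4 TPM, the acute libraries 19.5, 19.2 and 33.9 TPM and the chronic libraries 17.0, 17.0 and 10.0 TPM. Levels of Zbp1 were 5.34, 6.27 and 36.3 TPM in standard oxygen, 8.45, 6.66 and 22.5 TPM after acute hypoxia and 6.51, 6.72 and 3.98 TPM in chronic hypoxia. The 2 genes share a shape: close values in X and Y throughout, a high standard and a less high acute library in Z, and the lowest value of all in the chronic library of Z. Ifih1 was at 6.79, 8.80 and 10.5 TPM in the standard libraries, at 6.93, 7.62 and 5.79 TPM in the acute ones and at 9.30, 10.1 and 4.98 TPM in the chronic ones. The highest Ifih1 value was also in the standard library of code Z and the lowest in its chronic library, but the chronic library of Y was close to the highest; the chronic libraries were above standard oxygen in X and Y and below it in Z. Ddx58 and Dhx58 were at 25.7 and 30.3 TPM in the standard library of code Z and at 7.57 to 16.7 TPM in the other 8 libraries. Ifi204 shares 20.7% of its 75-base stretches with Ifi207, Ifi211 and Mndal.

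Stat2 and Irf9 encode parts of the complex that binds the response element, and Irf7 amplifies the response by switching on interferon genes. The Irf7 level was 3.82, 6.60 and 27.9 TPM in standard oxygen, 5.11, 6.30 and 14.1 TPM after acute hypoxia and 1.84, 1.98 and 2.13 TPM in chronic hypoxia. Irf7 was at about 2 TPM in all chronic libraries, below all acute and standard libraries, and its spread in standard oxygen came from code Z. For Stat2, the standard libraries gave 10.9, 13.6 and 31.1 TPM, the acute libraries 12.0, 13.0 and 13.8 TPM and the chronic libraries 11.8, 14.2 and 13.5 TPM. Levels of Irf9 were 13.2, 14.4 and 28.8 TPM in standard oxygen, 16.9, 15.7 and 16.9 TPM after acute hypoxia and 16.1, 13.9 and 10.3 TPM in chronic hypoxia. For Stat2 and Irf9 the standard library of code Z was 2.54 and 2.09 times the mean of the other standard libraries, and the other 8 libraries lay between 10.3 and 16.9 TPM.

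Interferon-inducible GTPases attack vacuoles that hold microbes inside the cell. Irgm1 was at 13.8, 13.6 and 37.2 TPM in the standard libraries, at 15.6, 15.5 and 20.96 TPM in the acute ones and at 11.04, 10.5 and 9.49 TPM in the chronic ones. Irgm1 was low in every chronic library, below all acute and standard ones. The Ifi47 level was 3.27, 3.05 and 6.05 TPM in standard oxygen, 2.68, 2.87 and 5.03 TPM after acute hypoxia and 5.57, 5.02 and 4.71 TPM in chronic hypoxia. The chronic value of Ifi47 was above the standard one in X and Y and below it in Z; a small part of its exons (4.29% and 4.49%) overlaps other genes, 1 of them antisense, and the strand used in counting is not given in the sources used here. For Gbp2, the standard libraries gave 0.910, 1.18 and 4.64 TPM, the acute libraries 1.43, 0.990 and 4.37 TPM and the chronic libraries 1.78, 1.57 and 1.32 TPM. Gbp2 was at 4.36 TPM or more in the standard and acute libraries of code Z and at 1.78 TPM or less elsewhere. Igtp and Gbp3 reached 13.5 and 3.76 TPM in the standard library of code Z, while Gbp5, Gbp7 and Iigp1 did not pass 1.41 TPM in any library.

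The antigen processing members supply peptides for class I presentation. Levels of Psmb8 were 52.2, 63.9 and 69.4 TPM in standard oxygen, 57.8, 66.7 and 65.0 TPM after acute hypoxia and 69.8, 72.5 and 56.5 TPM in chronic hypoxia. Psmb8, a subunit of the immunoproteasome, varied little between libraries. Tap1 was at 7.71, 8.85 and 14.98 TPM in the standard libraries, at 7.64, 6.58 and 9.72 TPM in the acute ones and at 12.3, 9.66 and 7.56 TPM in the chronic ones. Tap1, the peptide transporter, was highest in the standard library of code Z and, within codes X and Y, its chronic value was above the standard one; 3.87% of its exons overlap the antisense gene Psmb9.

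**Figure D2:**
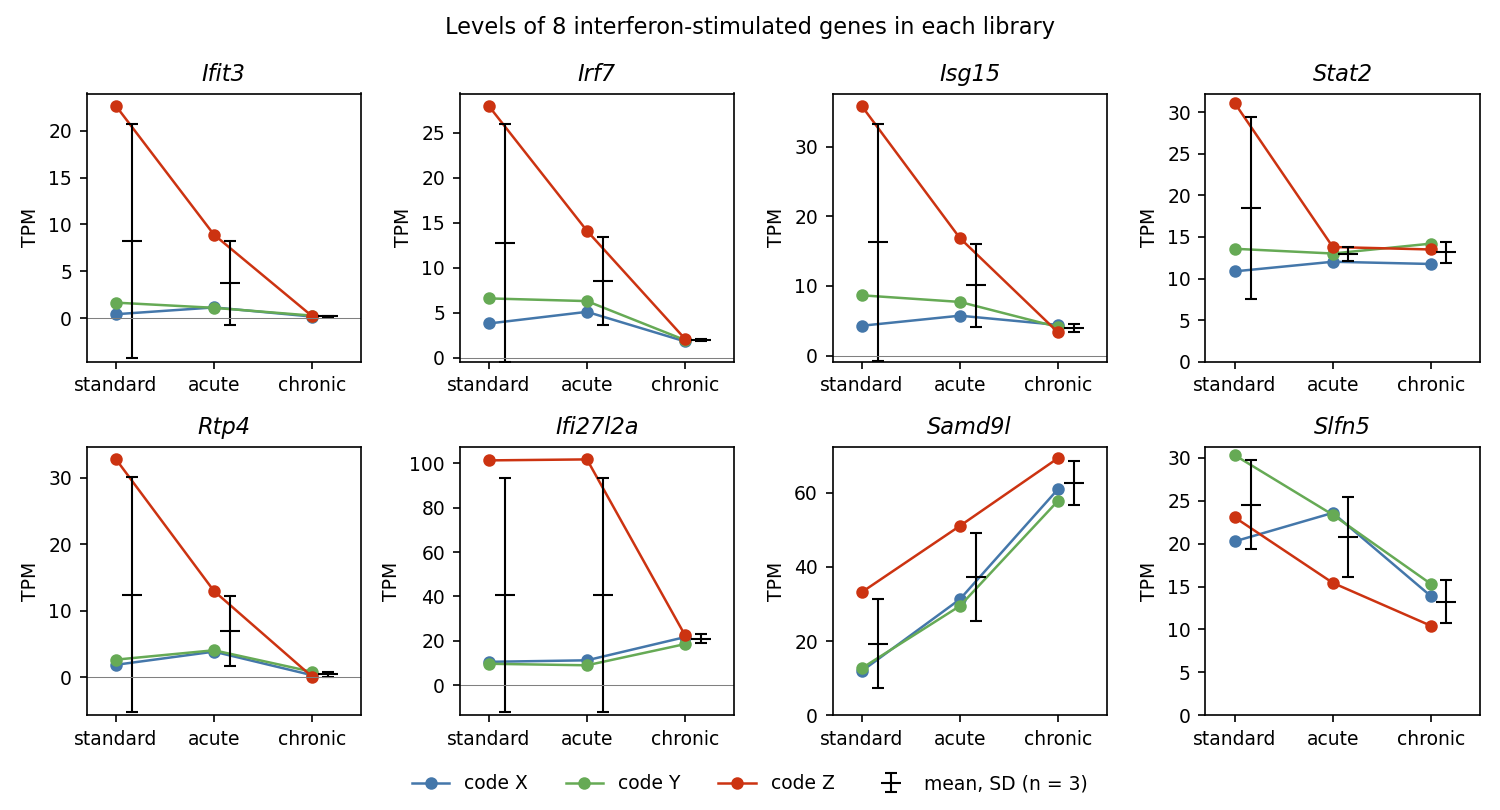
Levels in TPM (linear axis from 0 or, where the error bar crosses it, below 0) of 8 members in standard oxygen, acute hypoxia and chronic hypoxia. Coloured lines join the libraries of 1 code and black bars give the mean and SD of 3 libraries. In Ifit3, Irf7, Isg15 and Rtp4 the code Z line starts far above the others and meets them in chronic hypoxia. The code Z line of Stat2 also starts above the others but is close to them already in acute hypoxia. Ifi27l2a drops in code Z after acute hypoxia, and Samd9l and Slfn5 move one way in all codes from acute to chronic hypoxia.

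The earliest comparison, acute hypoxia against standard oxygen, covered 3 hours at 1% oxygen. No member was called: 0 of 38 passed an adjusted p under 0.05 in limma with the code as a block. Of all 10987 genes, 0.71% were called. Only 1 member, Samd9l, had an unadjusted p under 0.05, while 1555 of all genes had. Within the code Z pair, 10 of the 38 were lower in acute hypoxia by at least 1 on the log2(TPM + 1) scale (26.3%; all genes 1.12%), and within X and Y 0 were (all genes 1.04% and 1.2%). Over the 34 members with at least 1 TPM in X and Y, 7 were lower in code Z (20.6%; all genes 0.973%). The median difference was 0.25 in X, -0.02 in Y and -0.68 in Z, against a median over all genes of 0.04 in X and 0 in Z. Rtp4 shows the split: its acute library was above the standard one in X and Y and below it in Z (32.7 against 13.0 TPM). Isg20 was the only member whose groups did not overlap, with higher acute values (all genes 7.63%), and 0 members had lower acute values without overlap (all genes 4.85%). The mean level of Samd9l was 19.3 ± 12.1 TPM in the standard libraries and 37.2 ± 12.0 TPM in the acute libraries (SD, n = 3); the log2 fold change of 1.03, with an SE of 0.155, did not pass the test (limma adjusted p = 0.088). It was higher in 3 of 3 pairs. Without code Z, 1 of 36 members was called, Samd9l, at a log2 fold change of 1.24 and a limma adjusted p of 0.0203 (all genes 3.02%, 2.09% higher). That fit rests on the pairs of X and Y only. Leaving out just the standard or the acute library of code Z gave the same estimate (limma adjusted p 0.0222 and 0.0209). Under the block a library without its pair adds nothing, so these fits are not further support. With code Z and no block 0 were called (all genes 0.0273%), and 1 member had an unadjusted p under 0.05 (785 of all 10987 genes). The median log2 fold change over members was -0.11 with code Z and 0.14 without it, and 19 of the 36 members in both fits changed sign.

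Chronic hypoxia against standard oxygen compared cells kept for 7 days at either level. Of 38 members, 1 rose (Samd9l) and 1 fell (Slfn5), while 18.4% of 11067 genes were called, 15.1% higher and 3.3% lower; the members' share is below that of all genes. The mean level of Samd9l was 19.3 ± 12.1 TPM in the standard libraries and 62.7 ± 5.96 TPM in the chronic libraries (SD, n = 3). The log2 fold change was 1.80, with an SE of 0.256 and a limma adjusted p of 0.0186, and the gene was higher in 3 of 3 pairs. Slfn5 had mean levels of 24.5 ± 5.18 and 13.2 ± 2.51 TPM (SD, n = 3); the log2 fold change was -0.84, with an SE of 0.132 and a limma adjusted p of 0.0226, lower in 3 of 3 pairs. Neither call held without the block (limma adjusted p 0.0607 for Samd9l and 0.0801 for Slfn5, with 0 members and 2.69% of all genes called). In that fit 7 of 38 members and 2533 of 11067 genes had an unadjusted p under 0.05. Samd9l lies at chr6:3372257-3399572 on the minus strand and Slfn5 at chr11:82951349-82964840 on the plus strand (GRCm38, GENCODE M21).

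Besides Slfn5, which was called, further members were low in chronic hypoxia without passing the test. For 10 of the 38, all 3 chronic libraries were below all 3 standard ones (26.3%; all genes 5.39%): Ifit1, Ifit3, Irf7, Irgm1, Oas1a, Oas2, Oas3, Rsad2, Rtp4 and Slfn5. The reverse held for Samd9l alone (2.63%, against 24.2% of all genes). Of the 10, Ifit1, Ifit3 and Rsad2 averaged under 1 TPM over codes X and Y in this comparison. They were tested only because code Z was high in standard oxygen, so the share of 26.3% includes members that the filter favoured. The mean level of Irf7 was 12.8 ± 13.2 TPM in the standard libraries and 1.98 ± 0.147 TPM in the chronic libraries (SD, n = 3); its log2 fold change was -1.77, with an SE of 0.488 and limma's adjusted p at 0.0657. For Rtp4 the log2 fold change was -2.33 (adjusted p 0.115), for Oas3 -1.73 (0.0822) and for Oas1a -0.99 (0.112), all lower in 3 of 3 pairs. Ifit1 (-1.85, adjusted p 0.127), Ifit3 (-1.86, 0.162), Rsad2 (-1.64, 0.125), Oas2 (-1.29, 0.132) and Irgm1 (-0.84, 0.144) were also lower in 3 of 3 pairs. Where the groups do not overlap, all 3 pairs must point one way, so the count of pairs adds nothing for these members. In each of them the pair of code Z gave the largest difference. With all 9 libraries in 1 fit, 6 members were called (all genes 26.3%): Samd9l higher, and Irf7, Oas1a, Oas3, Rtp4 and Slfn5 lower.

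The 3 pairs did not give 1 answer for most other members. In the pair of code Z, 28 of 38 members were lower in chronic hypoxia by at least 1 on the log2(TPM + 1) scale (73.7%; all genes 2.2%), against 1 in X (2.63%; all genes 1.6%) and 5 in Y (13.2%; all genes 1.89%). Over the 34 members with at least 1 TPM in X and Y the count was 24 in Z (70.6%; all genes 1.97%), 1 in X and 3 in Y. The median difference over members was 0.15 in X, 0.06 in Y and -1.70 in Z, and over all genes 0.16, 0.17 and 0.15. In Z, 37 of 38 members were below their standard value; in X 15 were, and in Y 17. Without code Z, 34 members were tested and 11 were called (all genes 35%). Bst2, Eif2ak2, Ifi27l2a, Ifi47, Psmb8 and Samd9l rose, and Irf7, Oas1a, Oas3, Rtp4 and Slfn5 fell (all genes 28% and 7.02%). The log2 fold change there was -1.06 for Irf7 (limma adjusted p = 0.0139), -0.45 for Oas1a (0.00875) and -1.05 for Rtp4 (0.027), each smaller in size than with code Z. The sign of 16 of the 34 members differed between the fits with and without code Z, and the median over members went from -0.45 to 0.10. Leaving out 1 library gave 0 calls without the standard library of X, the standard library of Y or the chronic library of Y. It gave 1 without the chronic library of X, 10 of 33 members without the standard library of Z and 12 of 38 without the chronic library of Z. Both fits without a library of Z rest on the pairs of X and Y, as does the fit without code Z, where 35% of all genes were called. The range of calls over all genes is given at the end. A library left without its pair adds nothing to the estimate under the block.

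**Figure D3:**
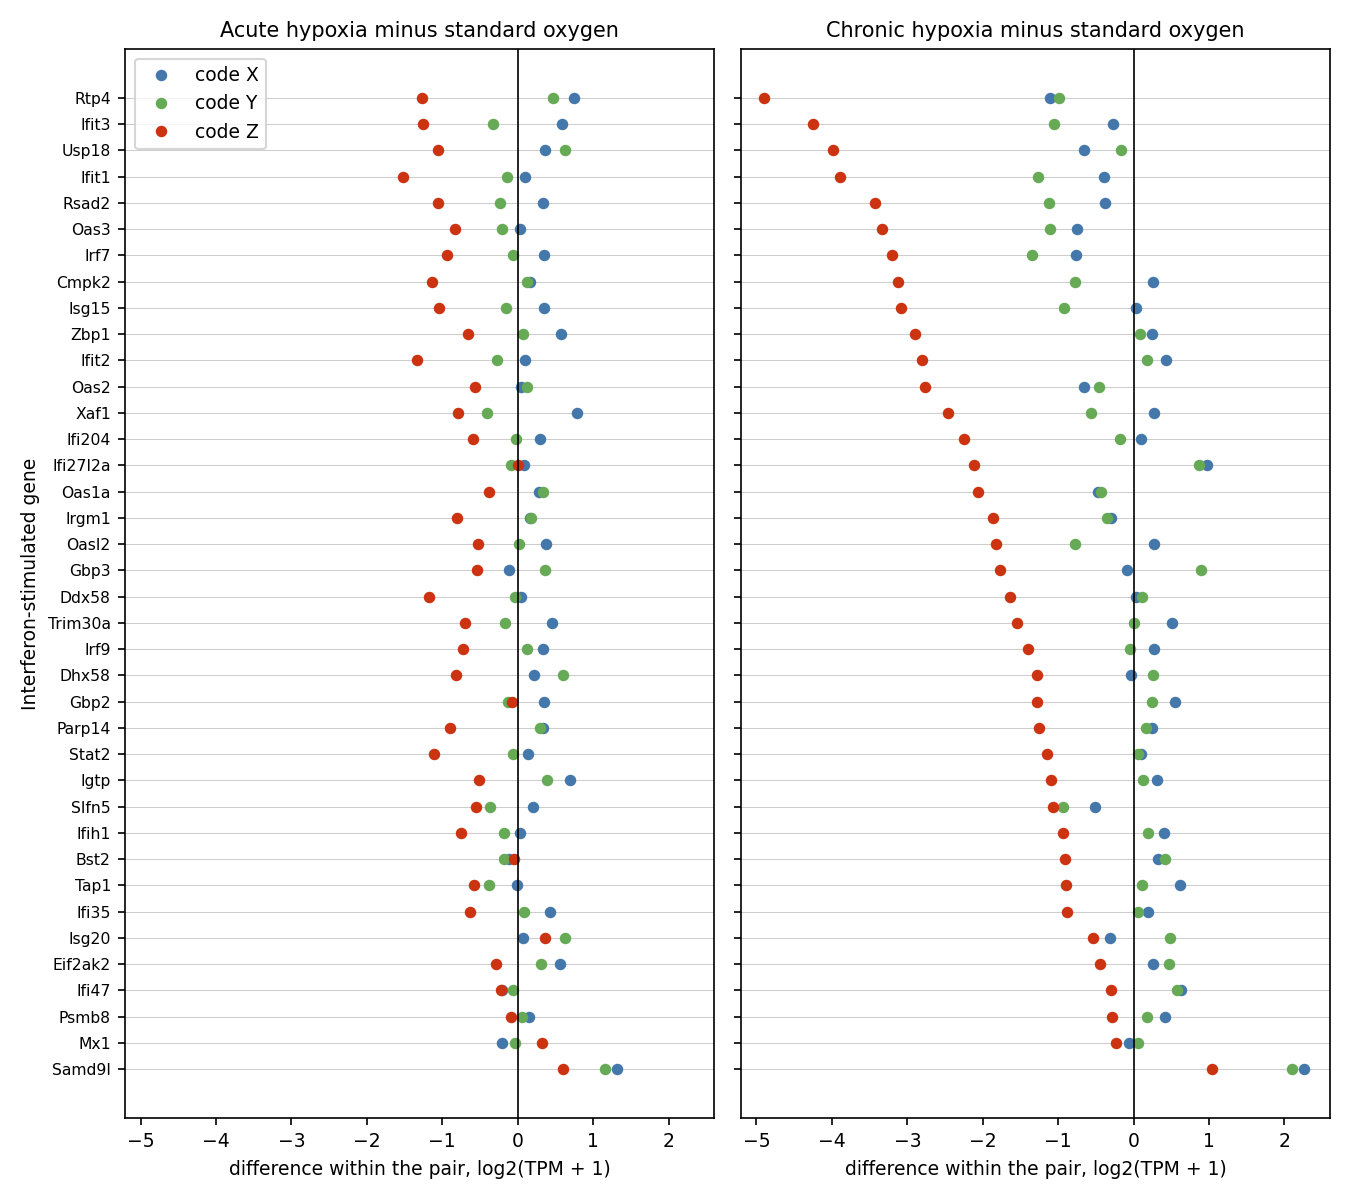
Difference within each pair of libraries that share a code, in log2(TPM + 1), for acute hypoxia minus standard oxygen (left) and chronic hypoxia minus standard oxygen (right); each row is 1 of the 38 members tested, each point 1 pair. In the right panel the code Z points run from -4.90 for Rtp4 to 1.04 for Samd9l while the X and Y points stay near 0 for most members.

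Chronic against acute hypoxia compared 7 days with 3 hours of low oxygen. Of 37 members tested, 1 rose (Samd9l) and 5 fell (Irf7, Irgm1, Oas1a, Rtp4 and Slfn5), while 15.5% of 11087 genes were called, 12.1% higher and 3.42% lower. Irf7 had mean levels of 8.51 ± 4.88 and 1.98 ± 0.147 TPM (SD, n = 3); the log2 fold change was -1.56, with an SE of 0.256 and a limma adjusted p of 0.0225. Rtp4 went from 6.97 ± 5.19 TPM to 0.443 ± 0.373 TPM, a log2 fold change of -2.31 (adjusted p = 0.0302). The log2 fold changes of Oas1a, Irgm1, Slfn5 and Samd9l were -1.07 (adjusted p = 0.0297), -0.69 (0.0394), -0.61 (0.0185) and 0.77 (0.0217). Each of the 6 moved the same way in 3 of 3 pairs. Without the block 0 members were called (all genes 0.695%), with limma adjusted p for these genes from 0.0654 for Oas1a to 0.185 for Slfn5. In that fit 16 members had an unadjusted p under 0.05, and the matching count over all genes is not given here. With all 9 libraries in 1 fit, 4 members were called (all genes 22.1%), and Rtp4 (adjusted p = 0.0534) and Irgm1 (0.125) no longer were. For 18 of 37 members all chronic values were below all acute values (48.6%, against 5.5% of all genes), among them Isg15, Usp18 and Parp14. For 1, Samd9l, all were above (2.7%, against 22.3% of all genes). Of the 18, Ifit1, Ifit3 and Rsad2 averaged under 1 TPM over codes X and Y in this comparison. They were tested only because code Z was high in acute hypoxia, so the share of 48.6% includes members that the filter favoured. This comparison shares the chronic libraries with the one before.

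Within pairs, 19 of 37 members were lower by at least 1 on the log2(TPM + 1) scale in code Z (51.4%; all genes 2.17%), 3 in X (8.11%; all genes 1.73%) and 3 in Y (8.11%; all genes 1.87%). Over the 34 members with at least 1 TPM in X and Y it was 16 in Z (47.1%; all genes 1.98%), 3 in X and 2 in Y. The medians were -0.24 in X, -0.16 in Y and -1.07 in Z, and over all genes 0.12, 0.16 and 0.14. Without code Z, 12 of 33 members were called (all genes 25.1%, 19.6% higher and 5.51% lower): Bst2, Ifi27l2a, Ifi47, Samd9l and Tap1 rose, and Irf7, Irgm1, Oas1a, Oas3, Rtp4, Slfn5 and Usp18 fell. The 6 members called with code Z were all among these 12. The count was 0 without either library of X, 3 without either library of Y and 12 without either library of Z. Fits without a library of Z rest on the pairs of X and Y, as does the fit without code Z, where 25.1% of all genes were called. The range of calls over all genes is given at the end. Irf7, Oas1a, Rtp4 and Slfn5 were lower in chronic hypoxia than in both other groups in X, Y and Z alike, and Samd9l was higher. Among the members tested, Ifit1, Ifit3, Irgm1, Oas2, Oas3, Rsad2 and Usp18 were also lower than both other groups within every code.

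Rescaling the libraries by the median of ratios moved the median of all genes from 0.162 to 0.00063 in chronic hypoxia against standard oxygen and from 0.143 to 0.00085 in chronic against acute hypoxia. The calls over all genes were then 11.5%, split into 5.64% higher and 5.9% lower, and 9.79%, split into 4.73% higher and 5.06% lower. With rescaling, Samd9l and Slfn5 were again the members called against standard oxygen (log2 fold changes of 1.63 and -1.01), and 8 members were called in chronic against acute hypoxia, 1 higher and 7 lower.

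A further test asked whether libraries of 1 code differed from the others across the oxygen groups. With oxygen as a covariate, 3 of 38 members were called by limma's F test (Oas2, Oas3 and Samd9l, adjusted p 0.0406, 0.0494 and 0.0499), and 24.3% of all 11065 genes were. Leaving out the chronic library of code Z raised the count to 20 members. Leaving out the standard library of X or the chronic library of Y gave 1, and leaving out any 1 of the rest gave 0. The shares of all genes called in these fits are not given here, so whether such a change is particular to the members cannot be told. In the balanced layout, the oxygen group held a median of 27.5% of a member's variation in log2(TPM + 1), the code 28.9% and the remainder, which includes any difference in the oxygen response between codes, 39.4%. Over all genes the medians were 36.5%, 33.7% and 17.5%. The members thus had a larger remainder than genes in general, with Samd9l at the other end at 6.81%, where oxygen held 74.9%.

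**Figure D4:**
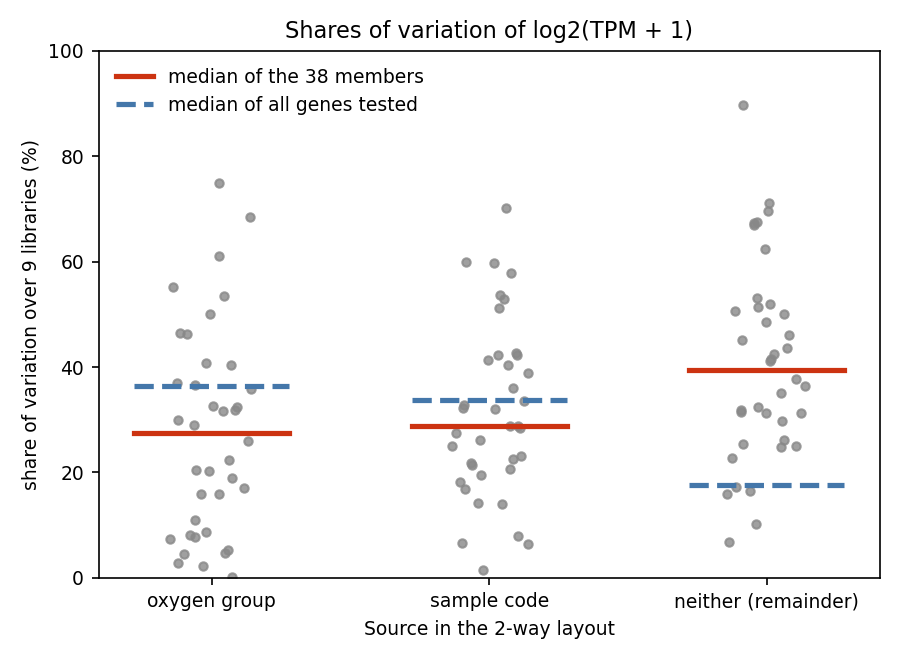
Share of each member's variation over the 9 libraries (percent of the sum of squares of log2(TPM + 1)) held by the oxygen group, the code and the remainder; grey points are the 38 members, spread sideways for visibility. The red line (median of the members) lies above the blue dashed line (median of 11065 genes) for the remainder, 39.4% against 17.5%.

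The upstream parts of the pathway were measured beside the members, from gene lists drawn up with earlier results of these data known. Of 21 interferon genes, 18 were listed at 0 in all 9 libraries, Ifnb1 and Ifng among them, and the highest value was 0.218 TPM, for Ifnk in the chronic library of code Z; none was tested. The receptor genes were well expressed, with Ifnar1 at 38.9 to 52.6 TPM and Ifnar2 at 110.7 to 146.8 TPM over the libraries. Of 5 receptor genes tested, 1 rose in chronic hypoxia against standard oxygen and 0 fell. Ifngr1, the ligand-binding chain of the interferon gamma receptor, was at 128, 132 and 102 TPM in standard oxygen, 113, 103 and 77.1 TPM after acute hypoxia and 195, 194 and 173 TPM in chronic hypoxia, a log2 fold change of 0.63 (limma adjusted p = 0.0128). The kinase genes Jak1 and Tyk2, which act at the receptor, were not called in this comparison and stayed within 80.4 to 93.6 TPM and 15.6 to 20.6 TPM.

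Of 20 genes that sense infection and induce interferon, 3 rose in chronic hypoxia against standard oxygen (Ikbke, Irf5 and Traf6) and 0 fell, a share near that of all genes (15.1% higher, 3.3% lower). Traf6, a ubiquitin ligase of Toll-like receptor signalling, had the largest fold change of these (log2 0.69, limma adjusted p = 0.0213). Of 4 other interferon regulatory genes tested, Irf2 and Irf8 rose; Irf8, a factor of the macrophage lineage, was at 65.0, 72.0 and 49.3 TPM in standard oxygen and 96.7, 110.2 and 96.4 TPM in chronic hypoxia (log2 fold change 0.71, adjusted p = 0.0185). Of 12 negative regulators, 1 fell and 0 rose: the phosphatase gene Ptpn1 (-0.66, adjusted p = 0.0177). Of 98 further interferon-stimulated genes tested, 3 rose (Cd86, Il15 and Psmb10) and 4 fell (Cd274, Ly6e, Slfn2 and Znfx1), where 15.1% of all genes rose and 3.3% fell. Slfn2, a Schlafen gene like Slfn5, was at 307, 301 and 446 TPM in standard oxygen and 164, 171 and 224 TPM in chronic hypoxia (-0.90, adjusted p = 0.0073), and the cytokine gene Il15 at 9.28, 7.31 and 13.7 TPM and at 29.9, 33.2 and 19.0 TPM (1.36, adjusted p = 0.0466). Without the block no gene of these pathway lists was called in this comparison. For Ifngr1, Traf6, Irf8, Ptpn1, Il15 and Slfn2 the limma adjusted p was then 0.0509 to 0.15. In acute hypoxia against standard oxygen 0 genes of these lists were called. Of the 100 further interferon-stimulated genes tested, 8 had an unadjusted p under 0.05. Of all 10987 genes 1555 had, a larger share. Without code Z, 29 of 95 further interferon-stimulated genes rose and 9 fell in chronic hypoxia against standard oxygen, where 28% of all genes rose and 7.02% fell. With rescaling by the median of ratios, 1 of the 98 rose (Cd86) and 7 fell, with Il15 and Psmb10 no longer called. Of the 20 genes that sense infection, 2 then rose (Ikbke and Traf6) and 1 fell (Ticam1), and of the 5 receptor genes 1 rose (Ifngr1) and 1 fell (Ifnar2). Irf2 was no longer called.

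The genes whose levels followed the members most closely were ranked by Pearson's r over the 9 libraries with the mean standardized level of the tested members; libraries of 1 code are not independent of each other, and r is given as a description. Gbp6 (r = 0.977), Trim32 (0.953), Ifi211 (0.946) and St13 (0.943) were among the closest outside the list, followed by Gm49342, H2-T24, Tmem198b, P2rx1 and Trim30d down to r = 0.925. Gbp6, a guanylate-binding protein gene, was at 5.18, 6.30 and 13.6 TPM in standard oxygen, 5.84, 5.66 and 7.97 TPM after acute hypoxia and 5.26, 5.93 and 4.02 TPM in chronic hypoxia. Its standard library of code Z was the highest of the 9 libraries, and the groups overlapped. Gbp6, Ifi211 and Trim30d were on the lists of pathway genes. Among the members themselves, Zbp1 (r = 0.984) and Ifi204 (0.975) were closest to the members' mean, and Samd9l (0.079), Isg20 (0.235), Slfn5 (0.268) and Ifih1 (0.376) were the farthest from it.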

How the data were processed

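Libraries of TruSeq mRNA were sequenced as paired ends of 75 bases, per the labels' protocols, and FastQC, STAR and featureCounts are named with the build GRCm38 in the submitters' processing notes, without versions. TPM values for each gene were deposited in 3 tables, 1 for each pair of groups; the annotation, the strand setting and the depth are not given in the sources used here. Values of a library were identical in the tables that share it (largest difference 0). Symbols and coordinates came from GENCODE M21 for 34582 of 34866 identifiers.

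From these TPM values, log2(TPM + 1) of genes with a mean of at least 1 TPM over the 6 libraries of a comparison was fitted with limma 3.58.1 in R 4.3.3 (eBayes with trend, two-sided), with the code as block, with Benjamini-Hochberg adjustment over all genes tested. Called means an adjusted p under 0.05, and rose and fell are used of called genes only. Fold changes on this scale understate changes of low genes. The block rests on the code pairing: deviations from the group means of same-code libraries correlated at r = 0.378 or more in every pair. Title number and code name the same pairs in chronic against acute hypoxia and for title number 1. For the other pairs by title number r was -0.515 to -0.282. The fit was tested on simulated data.

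Members, lists and tests were chosen with earlier results of these data known. Values per library are given, in each role group, for the member with the highest mean, those with the highest and lowest fold change in chronic hypoxia against standard oxygen, and that with the largest F between codes; from each pathway list, for the highest and lowest called gene. Slfn5 and Ifi27l2a were added after their values were seen. Fold changes are given only for called members, Samd9l in acute hypoxia, and members whose groups do not overlap in chronic hypoxia against standard oxygen. Alternatives were another pseudocount, filter, block, scaling or prior, all 9 libraries in 1 fit, and each library or code left out. Promoter sequences are RefSeq's on GRCm38.p6. The counts of code Z against X and Y over genes with at least 1 TPM in X and Y were added after seeing the data. Some results of the pathway are not reported here.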

Additional observations from a re-analysis of the deposited data

How the results depend on the processing

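Depth is unknown, which limits low genes most: 4 of the 38 members tested in chronic hypoxia against standard oxygen are under 1 TPM over codes X and Y alone. The count of members called was 0 in acute hypoxia against standard oxygen under every setting except those without code Z, and leaving out libraries or codes gave 0 to 1. In chronic hypoxia against standard oxygen (2 called), the replicate block mattered: without it, or with the title number as the paired block, 0 were called. No filter on low values gave 0, all 9 libraries in 1 fit 6, and leaving out libraries or codes 0 to 12. In chronic against acute hypoxia (6 called), the fit without the replicate block gave 0, no filter 0, eBayes without trend 3, and leaving out libraries or codes 0 to 12. The test between codes (3 called) gave 1 with a pseudocount of 5, 0 without the filter, 0 without trend, 1 with rescaling and 0 to 20 with a library left out. In each case the cause was not tested. The other settings of these counts stayed within 1.5 times, and no fold change printed for a member changed sign under any setting.

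Over all genes, the counts called in acute hypoxia against standard oxygen, chronic hypoxia against standard oxygen and chronic against acute hypoxia were 78, 2039 and 1724. They were 3, 298 and 77 without the block and 0, 273 and 3 without the filter. The title block gave 0 and 1 in the comparisons with standard oxygen. Rescaling gave 1276 and 1085 in the comparisons of chronic hypoxia, eBayes without trend 22 in acute hypoxia and 1034 in chronic against acute hypoxia, and all 9 libraries in 1 fit 204 in acute hypoxia. Leaving out libraries or codes gave 0 to 327, 4 to 3828 and 2 to 2751.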

Other observations

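Other genes outside the list also had their highest value in a code Z library, and the 3 given here were picked after their values were seen. This was common: of all 11065 genes, 11.6% were highest in the standard, 11.4% in the acute and 34.3% in the chronic library of code Z. Socs3, a suppressor of cytokine receptor signalling, was at 8.48, 9.52 and 46.4 TPM in standard oxygen for codes X, Y and Z, at 12.0, 21.4 and 57.8 TPM in acute hypoxia and at 7.28, 8.91 and 37.5 TPM in chronic hypoxia. Socs3 differed between codes in limma's F test (adjusted p = 0.000426), as did 24.3% of all genes. Trex1, a nuclease that removes stray DNA, was at 14.8, 15.4 and 44.2 TPM in standard oxygen, at 22.5, 18.4 and 17.9 TPM in acute hypoxia and at 24.4, 22.9 and 22.7 TPM in chronic hypoxia, so its high value was confined to the standard library of code Z among the 9. The chemokine gene Cxcl10, a classic interferon target, was at 0.141, 0.782 and 4.34 TPM in standard oxygen, at 0.429, 0.0828 and 3.23 TPM in acute hypoxia and at 0.142 TPM or less in chronic hypoxia. It was under 1 TPM in 7 of the 9 libraries.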
